A study of Mus musculus with 20 samples.

Results

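A set of 10 genes of MHC class II antigen presentation and of Langerhans cells, the dendritic cells that reside in the epidermis, was described in abdominal skin of mice with and without Zfp36 in their keratinocytes. The genes were taken by symbol and comprised H2-Aa, H2-Ab1, H2-Eb1, H2-DMa, H2-DMb1, Cd74, Ciita, Cd207, Epcam and Itgax. Of these 10 genes, 9 were read by 1 probe set each that carried no other gene symbol, out of 22180 genes measured on the array. The probe set of Cd74 carries a second symbol, a microRNA gene, so Cd74 is given no value. The set of 9 holds 6 class II genes and 3 Langerhans or dendritic cell genes.

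Skin was taken from 20 mice in 4 groups of 5 animals. They were imiquimod-treated Zfp36 knockouts (zfp36 fl/fl with K14 cre), mock-treated knockouts, imiquimod-treated littermate controls (zfp36 fl/fl) and mock-treated littermate controls. Imiquimod, an agonist of an innate RNA sensor used to model psoriasis in mouse skin, or a mock preparation was put on the skin on 5 days in a row, and the skin was sampled 4 hours after the last application. Zfp36 encodes tristetraprolin, an RNA-binding protein that hastens the decay of messenger RNAs with AU-rich elements. All groups carried the floxed allele, and K14 cre is active in basal keratinocytes. Langerhans cells and other immune cells of the knockout skin would by this design keep the gene, but Zfp36 was not measured by cell type. Strain, age and sex are not given in the labels.

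MHC class II molecules are pairs of an alpha and a beta chain that present peptides from taken-up proteins to helper T cells. Cd74, the invariant chain, guides them to the endosome, where H2-DM exchanges its remnant for a peptide, and Ciita is the coactivator without which class II genes are hardly transcribed. In skin, Langerhans cells and dermal dendritic cells carry most class II. Langerhans cells are known by langerin, the lectin encoded by Cd207, and by the adhesion molecule encoded by Epcam, which epithelial cells also make. Itgax encodes the integrin chain CD11c of dendritic cells. On activation Langerhans cells leave the epidermis for lymph nodes.

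Class II genes carry a shared pair of promoter elements, the X box bound by the RFX complex and the Y box bound by NF-Y, on which Ciita assembles. The RefSeq promoter windows (GRCm38.p6, 250 bases before to 50 after a gene's start) of the members were therefore searched for CTNGNAAC as a short form of the X box and GATTGG as a short form of the Y box. Both motifs were searched on both strands and do not overlap in the matches given. The letters were chosen from general knowledge of these elements after the windows had been read. A pair was counted where both lay on the gene's strand and GATTGG began 10 to 50 bases after the start of CTNGNAAC. Windows were matched for 7 members, and H2-Ab1 and Ciita had no entry. The 3 windows that held the pair are shown because they belong to class II members whose levels are compared below, with both motifs in capitals, each 5′ to 3′ on the gene's strand.
H2-Aa (chr17:34287774-34288073, minus strand): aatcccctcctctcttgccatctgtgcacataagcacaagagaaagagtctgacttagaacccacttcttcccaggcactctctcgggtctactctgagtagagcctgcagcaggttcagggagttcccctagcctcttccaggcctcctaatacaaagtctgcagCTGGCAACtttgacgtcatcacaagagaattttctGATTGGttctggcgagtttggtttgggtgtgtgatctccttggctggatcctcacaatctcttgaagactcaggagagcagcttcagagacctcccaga
H2-Eb1 (chr17:34305617-34305916, plus strand): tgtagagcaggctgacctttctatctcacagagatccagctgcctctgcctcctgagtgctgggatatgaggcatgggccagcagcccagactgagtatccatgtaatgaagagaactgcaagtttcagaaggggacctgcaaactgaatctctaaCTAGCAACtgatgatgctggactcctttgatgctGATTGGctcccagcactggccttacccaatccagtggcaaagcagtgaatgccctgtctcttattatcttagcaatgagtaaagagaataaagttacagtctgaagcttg
H2-DMb1 (chr17:34152941-34153240, plus strand): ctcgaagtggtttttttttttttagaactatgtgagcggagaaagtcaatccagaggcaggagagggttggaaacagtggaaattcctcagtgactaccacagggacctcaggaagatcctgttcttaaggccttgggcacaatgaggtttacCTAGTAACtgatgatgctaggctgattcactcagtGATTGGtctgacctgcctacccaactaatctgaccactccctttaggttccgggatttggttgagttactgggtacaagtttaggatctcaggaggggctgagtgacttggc
In H2-Aa the X match CTGGCAAC began 84 bases before the start and the Y match 49 bases before it. H2-Eb1 had CTAGCAAC at 94 bases and GATTGG at 60 bases before its start, and H2-DMb1 had CTAGTAAC at 97 and GATTGG at 62 bases. The spacing between the starts of both motifs was 35, 34 and 35 bases in H2-Aa, H2-Eb1 and H2-DMb1. Over all 32851 windows of 300 bases, CTNGNAAC was found in 13.2%, GATTGG in 16.1% and the ordered pair in 28 windows, or 0.0852%. These 28 windows belong to 26 genes, 4 of which are H2 genes, the fourth being H2-Ob. The windows of H2-DMa, Cd207, Epcam and Itgax did not hold the pair in these letters.

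The deposited table gives 1 value per probe set and array on a scale taken as log2, from 1.41 to 13.33, with array medians from 4.94 to 5.04. Values of different probe sets cannot be set against each other, so each gene is compared with itself across arrays. The probe set of Zfp36 read 6.40 ± 0.85 in imiquimod-treated knockout skin and 8.0 ± 0.26 in imiquimod-treated control skin (SD, n = 5 each). It read 5.43 ± 1.54 in mock-treated knockout skin and 7.46 ± 0.22 in mock-treated control skin. Knockout arrays lay at 5.47, 7.41, 6.12, 7.18 and 5.82 under imiquimod, against a lowest imiquimod-treated control of 7.68, and at 5.12, 6.84, 7.12, 4.61 and 3.47 in mock-treated skin, against a lowest mock-treated control of 7.22. Arrays 2 and 4 of the imiquimod-treated and arrays 2 and 3 of the mock-treated knockouts thus came close to the controls. Mock-treated knockout arrays 2 and 3 were also the highest of their group in H2-Aa, H2-Ab1, H2-Eb1 and H2-DMa, and the lowest in hair shaft genes. Imiquimod-treated knockout arrays 2 and 4 were not the highest of their group in these genes. There array 5, with Zfp36 at 5.82, was highest in H2-Aa, H2-Ab1 and H2-Eb1, and array 3 in H2-DMa. Whether the extent of the Zfp36 loss plays a part in the class II values was not tested. Groups did not overlap in either treatment, although the differences of -1.60 and -2.03 did not pass over all genes (limma adjusted p of 0.221 under imiquimod and 0.999 in mock skin). Whole skin holds cells that would by the design keep the gene, but where the remaining signal comes from was not tested. Krt14, the basal keratinocyte gene whose promoter drives the Cre, read from 12 to 12.31 in imiquimod-treated and 10.59 to 11.06 in mock-treated knockout skin, and from 11.29 to 11.81 in imiquimod-treated and 10.54 to 11.18 in mock-treated control skin. Without detection calls, a dim gene may lie at background. Libraries differed widely in hair shaft genes, as described with the spread among arrays further on.

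Imiquimod-treated knockout skin had less class II RNA than mock-treated knockout skin. Of the 9 genes, 6 fell and 0 rose in this comparison (limma, Benjamini-Hochberg adjusted p under 0.05 over all genes), against 9.71% of all genes that fell and 11.1% that rose. They were H2-Aa, H2-Ab1, H2-Eb1, H2-DMa, H2-DMb1 and Epcam. The median log2 difference of the 9 genes was -0.60, and that of all genes was 0. Arrays of both treatments did not overlap for H2-Aa, H2-Ab1, H2-Eb1, H2-DMb1 and Cd207, 5 of 9 genes, against 6.53% of all genes that were lower without overlap. In whole tissue, fewer cells of a type and less RNA per cell cannot be told apart.

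H2-Aa, the alpha chain of the I-A molecule (chromosome 17, 34282744 to 34287823, GRCm38.p6), showed the largest fall among the 9 genes. It read 6.63, 7.39, 7.12, 7.26 and 7.44 in imiquimod-treated knockout skin, against 8.30, 9.04, 8.78, 8.55 and 8.38 in mock-treated knockout skin. The highest imiquimod-treated array lay below the lowest mock-treated one. The log2 difference was -1.44 (95% interval -1.93 to -0.95), a level 2.72 times lower, with a limma adjusted p of 0.000168. In control skin H2-Aa read 7.66, 7.73, 7.68, 7.42 and 7.09 under imiquimod, against 7.66, 7.57, 8.71, 8.22 and 8.99 in mock-treated skin. There the groups overlapped, because mock-treated arrays 1 and 2 lay within the range of the imiquimod-treated ones.

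H2-Ab1, the beta chain that pairs with H2-Aa (chromosome 17, 34263227 to 34269418), read 8.08, 8.82, 8.92, 8.82 and 9.15 in imiquimod-treated knockout skin, against 9.64, 10.63, 10.53, 9.99 and 9.80 in mock-treated knockout skin. All 5 imiquimod-treated arrays lay below all 5 mock-treated ones. The log2 difference was -1.36 (95% interval -1.97 to -0.75), or 2.57 times lower, with a limma adjusted p of 0.00214. In control skin the values were 9.19, 9.46, 8.83, 9.27 and 8.39 under imiquimod, against 8.85, 9.23, 10.18, 9.63 and 10.61 in mock-treated skin. The mock-treated controls spread over more than the distance between the means of both treatments, with an SD of 0.71.

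H2-Eb1, the beta chain of the I-E molecule (chromosome 17, 34305867 to 34316674), read 6.76, 7.25, 7.24, 7.10 and 7.44 in imiquimod-treated knockout skin, against 7.72, 8.71, 8.62, 8.16 and 8.34 in mock-treated knockout skin. Again the groups did not overlap. The log2 difference of -1.15 (95% interval -1.65 to -0.66) amounts to a level 2.22 times lower, with a limma adjusted p of 0.00154. Control skin read 7.48, 7.69, 7.36, 7.37 and 7.02 under imiquimod, against 7.30, 7.58, 8.52, 7.74 and 8.77 in mock-treated skin. As with the other chains, mock-treated control arrays 3 and 5 were the highest and arrays 1 and 2 the lowest of their group.

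The subunits of H2-DM, the peptide exchange factor of the endosome, were lower by a smaller log2 amount. H2-DMa, its alpha chain (chromosome 17, 34119693 to 34139101), read 5.64, 5.74, 5.97, 5.58 and 5.91 in imiquimod-treated knockout skin, against 5.93, 6.80, 6.66, 6.39 and 6.08 in mock-treated knockout skin. The groups overlapped by 1 mock-treated array, the first. The log2 difference was -0.60 (95% interval -0.97 to -0.23), with a limma adjusted p of 0.0188. The call was lost without mock-treated knockout array 2 (limma adjusted p = 0.0635) or array 3 (limma adjusted p = 0.0507), and the difference shrank to -0.14 (limma adjusted p = 0.617) with the mean of muscle genes as a covariate and to -0.08 (limma adjusted p = 0.826) with that of adipocyte genes, which are described further on. In control skin H2-DMa had a mean of 5.91 ± 0.23 under imiquimod and 6.21 ± 0.38 in mock-treated skin.

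H2-DMb1, the beta chain (chromosome 17, 34153191 to 34160229), read 3.51, 3.57, 3.67, 3.73 and 3.56 in imiquimod-treated knockout skin, against 4.13, 4.16, 4.92, 3.86 and 4.09 in mock-treated knockout skin. The groups did not overlap, and array 3 of the mock-treated knockouts stood above the others. The log2 difference was -0.62 (95% interval -0.92 to -0.33), with a limma adjusted p of 0.00344. H2-DMb1 belongs to the dimmest 30% of genes, so its fold is uncertain, and its close copy H2-DMb2 may share signal with it. The probe set of H2-DMb2 itself did not pass, with a difference of -0.16 in knockout skin (limma adjusted p = 0.677).

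Ciita, the master coactivator of class II transcription (chromosome 16, 10480014 to 10531064), did not pass the test. It read 5.61, 5.89, 5.95, 5.78 and 6.05 in imiquimod-treated knockout skin, against 5.92, 6.19, 6.19, 6.13 and 6.02 in mock-treated knockout skin. Most of the imiquimod-treated arrays lay lower, but the groups overlapped. The log2 difference was -0.23, with a 95% interval from -0.51 to 0.04 and a limma adjusted p of 0.241. In control skin the difference was -0.11 (95% interval -0.38 to 0.16, limma adjusted p = 0.71). The interval in knockout skin leaves room for a fall of up to 0.51 on the log2 scale.

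**Figure D1:**
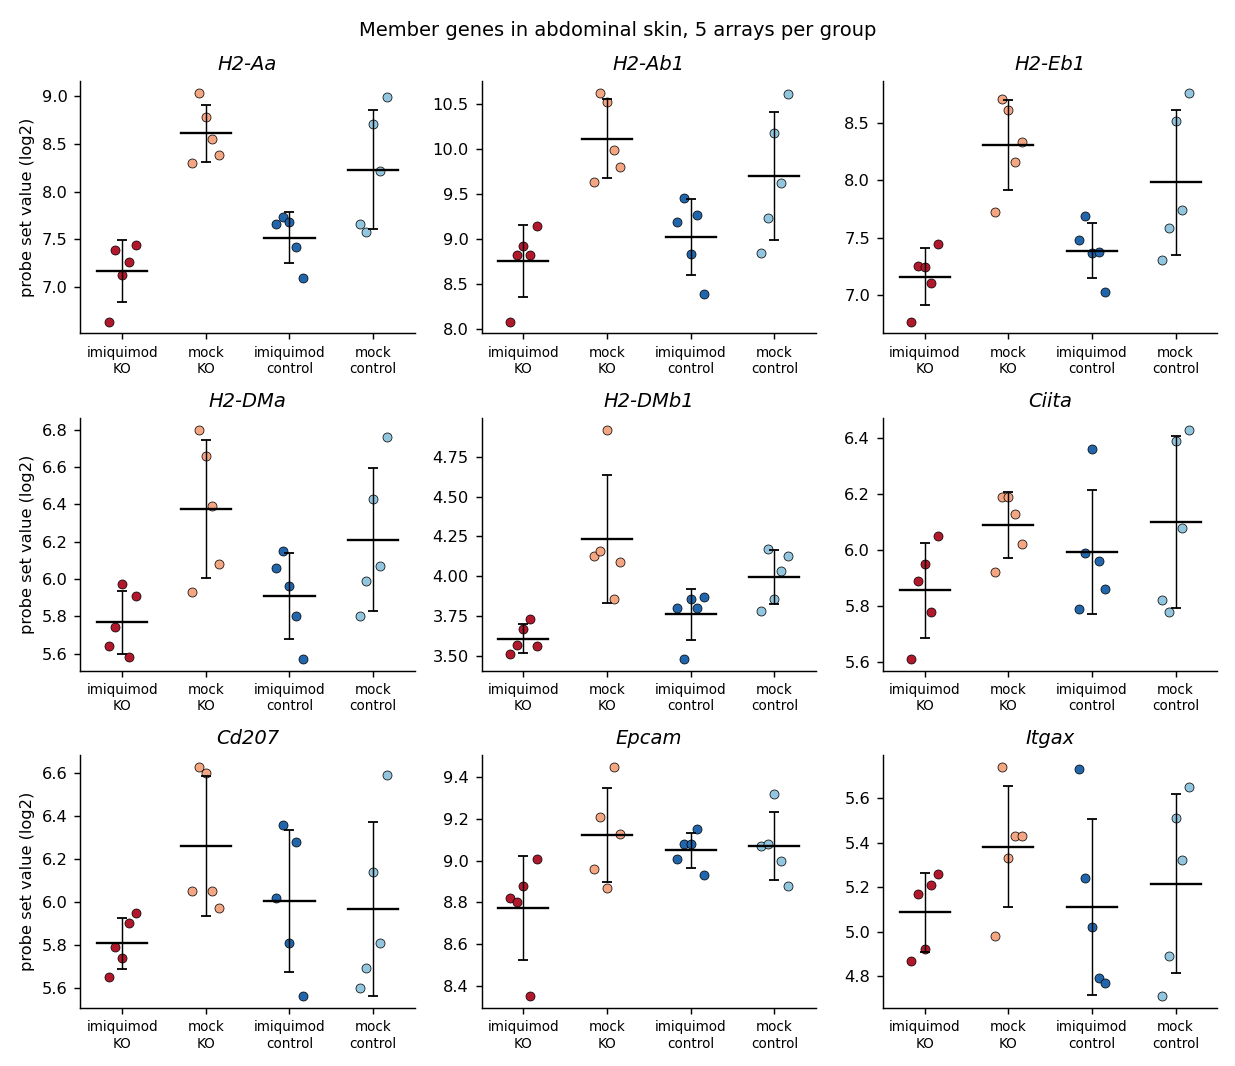
Probe set value (log2, vertical axis, own range in each panel) of 9 genes in the 5 arrays of each group. Points are arrays, long bars are group means and thin bars are SD. The imiquimod-treated knockout arrays of H2-Aa lie between 6.63 and 7.44, below all mock-treated knockout arrays, while Epcam and Itgax overlap between all groups.

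Among the Langerhans and dendritic cell genes, 1 of 3 passed in knockout skin, against 9.71% of all genes that fell. It was Epcam, which epithelial cells also make, so this count does not speak for Langerhans cells alone. Cd207, which encodes langerin (chromosome 6, 83671207 to 83677857), read 5.65, 5.79, 5.74, 5.90 and 5.95 in imiquimod-treated knockout skin, against 6.05, 6.63, 6.60, 6.05 and 5.97 in mock-treated knockout skin. The groups did not overlap, but the gap between them was narrow, at 5.95 against 5.97. The log2 difference of -0.45 (95% interval -0.84 to -0.07) did not pass over all genes, with a limma adjusted p of 0.0902. In control skin Cd207 read 6.02, 6.36, 5.81, 6.28 and 5.56 under imiquimod, against 5.60, 5.69, 6.14, 5.81 and 6.59 in mock-treated skin. The control groups covered nearly the same range, and the difference was 0.04 (95% interval -0.34 to 0.42, limma adjusted p = 0.94).

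Epcam (chromosome 17, 87635979 to 87651127) read 8.82, 8.80, 8.88, 8.35 and 9.01 in imiquimod-treated knockout skin, against 8.96, 9.21, 8.87, 9.45 and 9.13 in mock-treated knockout skin. The groups overlapped, with imiquimod-treated array 4 as the lowest. The log2 difference of -0.35 (95% interval -0.60 to -0.10) passed narrowly, with a limma adjusted p of 0.0395. The call was lost in 6 of the 10 fits that left out 1 of these arrays, namely without imiquimod-treated array 1, 2 or 4 or mock-treated array 2, 4 or 5, with limma adjusted p-values of up to 0.124. In control skin Epcam had a mean of 9.05 ± 0.08 under imiquimod and 9.07 ± 0.16 in mock-treated skin (SD, n = 5 each).

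Itgax, the CD11c chain (chromosome 7, 128129526 to 128150657), read 4.87, 5.17, 4.92, 5.21 and 5.26 in imiquimod-treated knockout skin, against 4.98, 5.74, 5.33, 5.43 and 5.43 in mock-treated knockout skin. The groups overlapped, and the log2 difference of -0.30 (95% interval -0.69 to 0.10) did not pass (limma adjusted p = 0.325). In control skin it read 5.73, 5.24, 5.02, 4.79 and 4.77 under imiquimod, against 4.71, 4.89, 5.51, 5.32 and 5.65 in mock-treated skin. Both control groups covered about the same range, and the difference was -0.11 (limma adjusted p = 0.822).

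Imiquimod-treated control skin was set against mock-treated control skin in the same way. By limma 0 of 9 genes passed, against 4.37% of all genes that fell and 6.47% that rose, and 3 of 9 had an unadjusted p under 0.05, against 23.9% of all genes. The differences of these 3, the antigen-presenting chains, were -0.71 for H2-Aa (limma adjusted p = 0.0568), -0.67 for H2-Ab1 (limma adjusted p = 0.159) and -0.60 for H2-Eb1 (limma adjusted p = 0.12). The median of the 9 genes was -0.23, with 8 of 9 estimates below 0, and that of all genes was 0. No gene of the 9 was lower without overlap, against 2.74% of all genes. The result leaned on single arrays: H2-Aa passed without mock-treated control array 1 (limma adjusted p = 0.0276) or array 2 (limma adjusted p = 0.0194), and H2-Eb1 without array 1 (limma adjusted p = 0.0442).

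The responses of both genotypes were set against each other in the same fit. No gene of the 9 passed (limma), against 4 genes or 0.018% over the array, and only H2-Aa had an unadjusted p under 0.05, against 6.75% of all genes. The knockout response of H2-Aa minus the control response was -0.73, with a 95% interval from -1.42 to -0.03 and a limma adjusted p of 0.728. For H2-Ab1 it was -0.69 (95% interval -1.55 to 0.17, limma adjusted p = 0.815) and for H2-Eb1 -0.55 (95% interval -1.26 to 0.15, limma adjusted p = 0.818). Cd207 had a difference of -0.49 (95% interval -1.04 to 0.05) and Epcam of -0.33 (95% interval -0.68 to 0.02). All 9 estimates were negative, but with the muscle gene mean as a covariate 6 of them turned positive, H2-Ab1 to 0.14 (limma adjusted p = 0.955) and H2-Eb1 to 0.12 (limma adjusted p = 0.954) among them, and with the adipocyte mean 3 did. The fall of class II genes under imiquimod was not shown to be larger in knockout than in control skin. The 9 genes share arrays, so their signs are not independent.

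**Figure D2:**
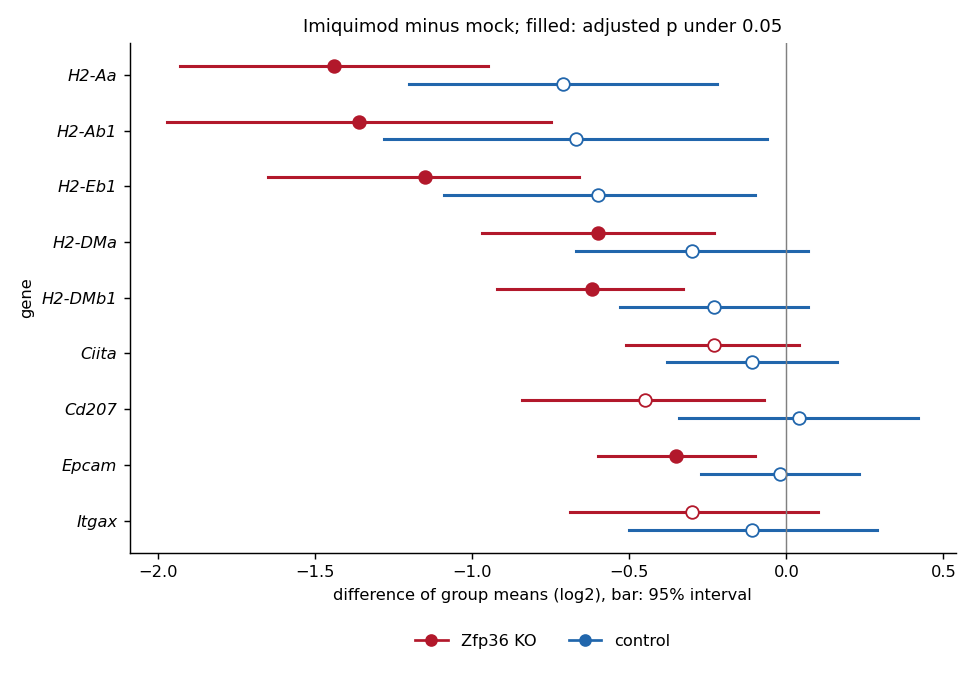
Difference between imiquimod-treated and mock-treated skin (log2, horizontal axis) of each gene in knockout skin (red) and control skin (blue). Points are differences of means of 5 arrays each, bars are 95% intervals, and filled points have a limma adjusted p under 0.05. In knockout skin 6 genes are filled, from -1.44 for H2-Aa to -0.35 for Epcam, and in control skin 0 genes are.

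Knockout skin was then set against control skin within each treatment. Under imiquimod 0 of 9 genes passed (limma), against 0.171% of all genes that were lower and 0.374% that were higher in knockout skin. Epcam was the 1 gene of 9 with an unadjusted p under 0.05, with a difference of -0.28 (95% interval -0.53 to -0.03, limma adjusted p = 0.414), and 10% of all genes had such a p. The differences of the other genes ran from -0.35 for H2-Aa (95% interval -0.84 to 0.14) to -0.02 for Itgax (95% interval -0.42 to 0.37). All 9 estimates were negative, and none of the class II intervals left out 0. The sign did not hold: with the muscle gene mean as a covariate 7 of the 9 estimates turned positive, with H2-Ab1 at 0.54 (limma adjusted p = 0.272), H2-Eb1 at 0.43 (limma adjusted p = 0.293), Cd207 at 0.33 (limma adjusted p = 0.252) and H2-Aa at 0.23 (limma adjusted p = 0.695), and with the adipocyte mean 4 did.

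In mock-treated skin, knockout against control, 0 of 9 genes passed (limma) and 0 of 9 had an unadjusted p under 0.05, against 0.00902% and 3.19% of all genes. Here 8 of 9 estimates were positive. They were highest for H2-Ab1, at 0.42 (95% interval -0.19 to 1.03), H2-Aa, at 0.38 (95% interval -0.11 to 0.87), and H2-Eb1, at 0.33 (95% interval -0.17 to 0.82). The estimate of Ciita was -0.01 (95% interval -0.28 to 0.26). Both genotype comparisons enter the response difference above, so they are no further evidence for it.

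**Figure D3:**
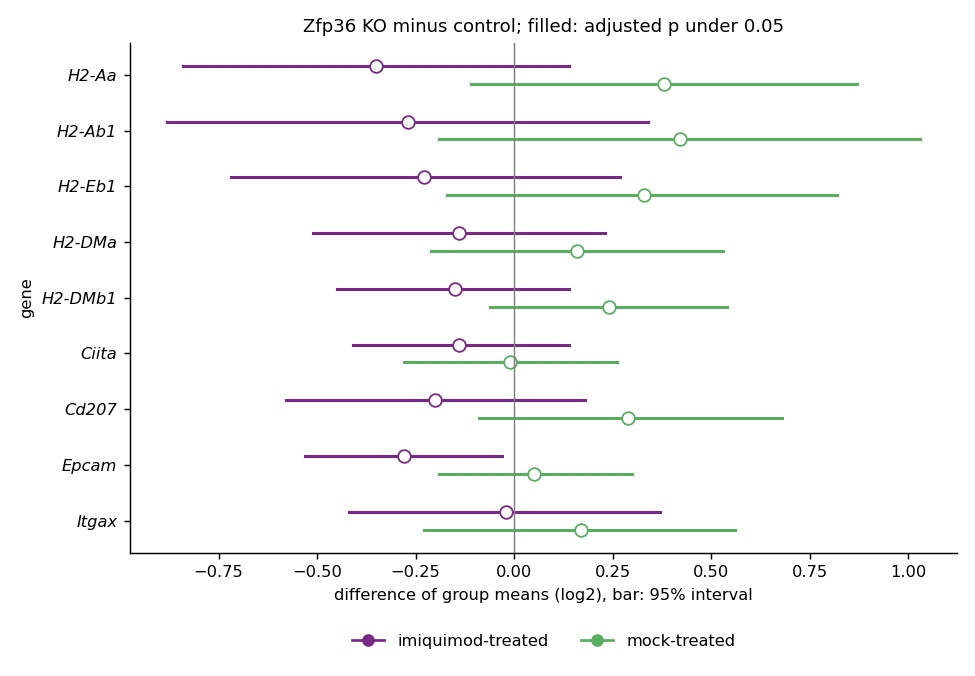
Difference between knockout and control skin (log2, horizontal axis) of each gene under imiquimod (purple) and in mock-treated skin (green). Points are differences of means of 5 arrays each, and bars are 95% intervals. All points are open, since 0 of 9 genes passed in either treatment. The H2-Aa difference is -0.35 under imiquimod and 0.38 in mock-treated skin.

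H2-Aa averaged 7.17 ± 0.33 in imiquimod-treated knockout skin, 8.61 ± 0.30 in mock-treated knockout skin, 7.52 ± 0.27 in imiquimod-treated control skin and 8.23 ± 0.63 in mock-treated control skin (SD, n = 5 each). H2-Ab1 averaged 8.76 ± 0.40 in imiquimod-treated and 10.12 ± 0.44 in mock-treated knockout skin, and 9.03 ± 0.42 in imiquimod-treated and 9.70 ± 0.71 in mock-treated control skin. For both genes the imiquimod-treated knockouts were lowest, followed by the imiquimod-treated controls, the mock-treated controls and the mock-treated knockouts. H2-Eb1, H2-DMa and H2-DMb1 followed the same order. No pair of neighbours in this order passed the test in any of these 5 genes. Cd207 was lowest in imiquimod-treated knockout skin, at 5.81 ± 0.12, and highest in mock-treated knockout skin, at 6.26 ± 0.33, with both control groups between them at 6.01 ± 0.33 under imiquimod and 5.97 ± 0.40 in mock-treated skin.

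The class II genes also varied together among the 5 arrays of a group. After the mean of each group was taken off, H2-Aa and H2-Ab1 had a Pearson r of 0.922 over the 20 arrays, H2-Aa and H2-Eb1 one of 0.917, and H2-Ab1 and H2-Eb1 one of 0.942. Against the mean of these 3 chains, H2-DMa had an r of 0.898, Cd207 of 0.884, Itgax of 0.789 and Ciita of 0.785. Epcam, at 0.0631, and the dim H2-DMb1, at 0.178, did not follow the chains. These values describe arrays that share the composition of 1 skin sample each, and are given without a test. Over all measured genes, the 5 closest to the mean of the 3 chains by this measure were Cst3, Lrrc1, Csf1r, Selenow and Clca2, with r from 0.985 to 0.954. Those closest to Cd207 were Ikzf2, Il17rc, Pvalb, Rnf225 and Csf1r, with r from 0.954 to 0.928. Cst3, at -0.37 (limma adjusted p = 0.211), Csf1r, Selenow and Clca2 did not pass between treatments in knockout skin, while Lrrc1 rose in both genotypes. Il17rc rose by 0.94 in knockout and 0.91 in control skin, and Rnf225 by 1.03 and 1.19. Ikzf2, at -1.13, and the muscle gene Pvalb, at -2.06, fell in knockout skin and did not pass in control skin. Genes alike within groups thus did not share a direction between treatments.

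This shared spread went with the level of hair genes, though not with these alone. The mean of 15 hair shaft genes was 9.37, 6.02, 5.90, 7.60 and 5.75 in imiquimod-treated knockout skin and 10.23, 8.10, 6.14, 10.05 and 10.51 in mock-treated knockout skin. In control skin it was 6.14, 5.78, 5.54, 6.10 and 9.65 under imiquimod and 10.47, 10.54, 9.61, 10.46 and 6.16 in mock-treated skin. Most imiquimod-treated arrays were thus low and most mock-treated arrays high, with 1 array in each group at the other end. Within groups, arrays high in hair genes were low in class II genes, with r of -0.825 for H2-Ab1, -0.771 for H2-Aa, -0.766 for H2-Eb1 and -0.803 for Cd207. Epcam had an r of 0.0678. For instance, mock-treated control array 5, low in hair genes, had the highest H2-Ab1 value of its group, 10.61. Imiquimod-treated control array 5, high in hair genes, had the lowest of its group, 8.39. Mock-treated control array 5 was also highest in the muscle gene mean described below, at 10.07, and in the mean of the chains. The same held for array 2 of the imiquimod-treated controls (9.72) and array 5 of the imiquimod-treated knockouts (8.72). Among mock-treated knockouts, array 3 was highest in muscle genes, at 9.74, and array 2 in the chains. A correlation with the muscle mean was not taken.

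With the hair mean as a covariate, the differences of the chains were larger in both genotypes. The difference of H2-Aa under imiquimod was then -1.81 in knockout and -1.22 in control skin, and that of H2-Ab1 was -1.86 and -1.34. In control skin 4 of 9 genes then passed, namely H2-Aa (limma adjusted p = 0.000154), H2-Ab1, H2-Eb1 and H2-DMa, against 9.11% of all genes in either direction in that fit. In knockout skin 7 of 9 passed, against 23.7% of all genes, with Cd207 at -0.75 (limma adjusted p = 0.000209) and Ciita at -0.40 (limma adjusted p = 0.0126) gained and Epcam lost. Leaving out the array of each group that stood farthest from its group in hair genes moved the values the other way. The difference of H2-Aa was then -1.27 in knockout and -0.42 in control skin, that of H2-Ab1 -1.09 and -0.29, and that of H2-Eb1 -0.98 and -0.31. Then 6 of 9 genes passed in knockout skin, against 21.3% of all genes in either direction, and 0 of 9 in control skin, against 16.2% (limma). The size of the class II difference in control skin therefore depended on how hair genes were treated. The hair mean itself was lower under imiquimod, at 6.93 against 9.01 in knockout and 6.64 against 9.45 in control skin. In the covariate fit its part can therefore not be told apart from that of imiquimod in either genotype.

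**Figure D4:**
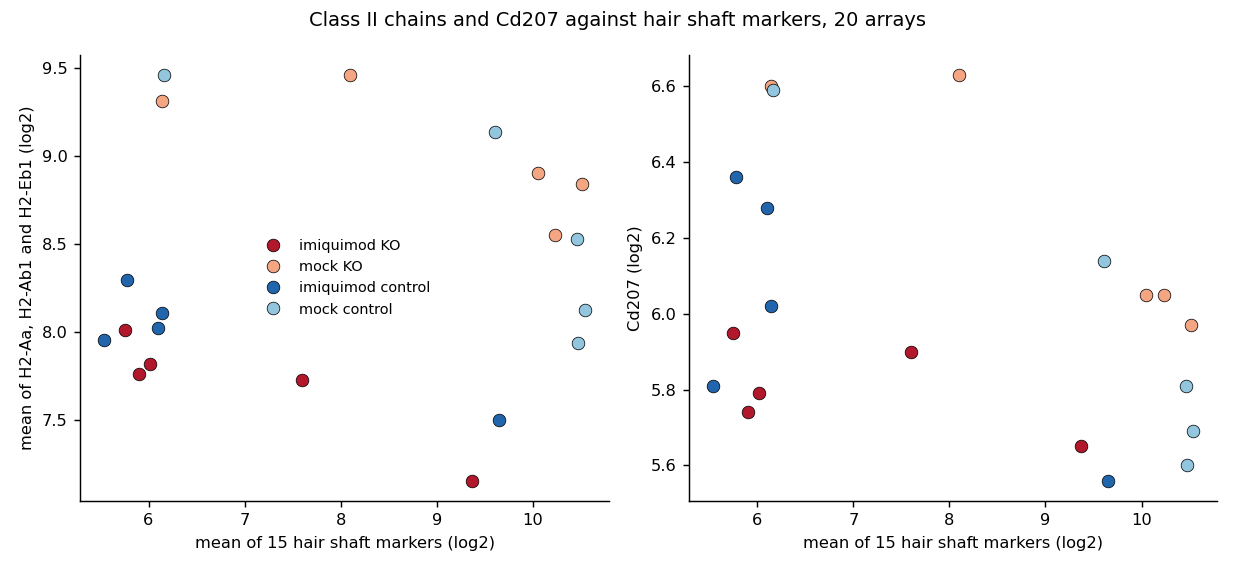
Mean of H2-Aa, H2-Ab1 and H2-Eb1 (left, log2) and Cd207 (right, log2) against the mean of 15 hair shaft genes (log2, horizontal axis) in 20 arrays, coloured by group. Within a group, arrays with a higher hair mean lie lower: H2-Ab1 has an r of -0.825 and Cd207 of -0.803 after group means are taken off.

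Muscle and fat genes moved with treatment in knockout skin as well. Of 12 skeletal muscle markers 8 fell and 1 rose, and of 9 adipocyte markers 7 fell, against 9.71% of all genes that fell and 11.1% that rose. In control skin 1 of the muscle markers rose and 1 of the adipocyte markers fell, against 6.47% of all genes that rose and 4.37% that fell. The mean of the muscle markers was 8.32 (7.93 to 8.72) in imiquimod-treated and 9.18 (8.89 to 9.74) in mock-treated knockout skin, without overlap. In control skin it was 9.17 under imiquimod and 9.16 in mock-treated skin. The adipocyte mean was 7.76 in imiquimod-treated and 8.88 in mock-treated knockout skin, and 8.27 in imiquimod-treated and 8.69 in mock-treated control skin. With the muscle mean as a covariate, 2 of 9 genes still passed in knockout skin, against 18.8% of all genes in either direction, H2-Aa at -0.85 (limma adjusted p = 0.00552) and H2-DMb1 at -0.54 (limma adjusted p = 0.0406). H2-Ab1 was then at -0.54 (limma adjusted p = 0.101) and H2-Eb1 at -0.49 (limma adjusted p = 0.0699). With the adipocyte mean, H2-Aa alone passed, at -0.87 (limma adjusted p = 0.0211), against 15.9% of all genes. Cd207 was at 0.08 with the muscle mean and -0.03 with the adipocyte mean, and Ciita at 0.03 and 0.02, so the gains of these genes with the hair mean did not extend to the other covariates. Since these covariates differ between the treatments compared, their part in the fall of class II genes cannot be told apart from that of imiquimod in knockout skin. In control skin, where the muscle mean hardly differed, 3 genes passed with the muscle covariate, against 15.3% of all genes in either direction: H2-Aa at -0.72 (limma adjusted p = 0.00402), H2-Ab1 at -0.69 (limma adjusted p = 0.00965) and H2-Eb1 at -0.61 (limma adjusted p = 0.0056). With the adipocyte covariate 0 of 9 passed in control skin (limma), against 15.7% of all genes, with H2-Aa at -0.50 (limma adjusted p = 0.0994), H2-Ab1 at -0.37 (limma adjusted p = 0.321) and H2-Eb1 at -0.36 (limma adjusted p = 0.231).

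In the rest of the class II pathway few genes passed, and they went both ways. The counts of this and the further lists stand beside 9.71% of all genes that fell and 11.1% that rose in knockout skin. In control skin these shares were 4.37% and 6.47%. Of 5 other class II chains and chaperones, 0 passed in either genotype by limma, with medians of -0.07 in knockout and 0 in control skin, against 0 over all genes. In each genotype 1 of the 5 had an unadjusted limma p under 0.05. Over all 22180 genes, 6925 had such a p in knockout and 5300 in control skin. H2-Ea, the alpha chain of I-E, was dim, with group means from 3.41 to 3.69, and some mouse strains do not express it. The strain is not known here, so no weight can be put on its difference of 0.27 in knockout skin (limma adjusted p = 0.0797). H2-Ob, which carries the promoter pair, was at -0.07 in knockout skin (limma adjusted p = 0.678) and at -0.29 in control skin (limma adjusted p = 0.0583). Among 10 genes of antigen processing and class II turnover, 2 rose and 1 fell in knockout skin, and 1 rose and 1 fell in control skin. Ctsd, the aspartic protease cathepsin D, rose by 0.46 in knockout skin (limma adjusted p = 0.00189) and by 0.49 in control skin (limma adjusted p = 0.00208). Lgmn, an endosomal endopeptidase, rose by 0.38 in knockout skin (limma adjusted p = 0.038). Ctsb, a cysteine protease, fell by 0.37 in knockout skin (limma adjusted p = 0.0484) and by 0.57 in control skin (limma adjusted p = 0.00667).

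Of 8 transcription factors of class II genes, 1 fell in each genotype and 0 rose. It was Rfx5, the subunit of the RFX complex that binds the X box. Rfx5 had a mean of 6.50 (6.32 to 6.72) in imiquimod-treated and 7.16 (6.97 to 7.36) in mock-treated knockout skin, without overlap. In control skin it had a mean of 6.57 (6.44 to 6.65) under imiquimod and 7.05 (6.94 to 7.16) in mock-treated skin, again without overlap. The log2 difference was -0.66 in knockout skin (limma adjusted p = 1.37e-05) and -0.47 in control skin (limma adjusted p = 0.000825), and the difference between both responses, -0.19, did not pass (limma adjusted p = 0.83). Interferon gamma induces Ciita. A list of 11 genes around this cytokine also holds Il10 and Socs1, which do not stand for induction of Ciita. Of the 11 genes, 4 rose in knockout skin and 1 in control skin, and 0 fell. These counts therefore do not give a direction of the inducing pathway, which was not tested. Over all genes, 11.1% rose in knockout and 6.47% in control skin. In knockout skin 8 of the 11 estimates were positive and 3 negative, those of Cxcl9, Cxcl10 and Irf1. Cxcl9 had a mean of 5.21 under imiquimod and 5.96 in mock-treated knockout skin. Cxcl10 had means of 4.76 and 5.09, and neither passed. Ifng itself was at 0.11 in knockout skin (limma adjusted p = 0.568) and Irf1, a transcription factor induced by interferon gamma, at -0.26 (limma adjusted p = 0.339). Ifngr2, a chain of the interferon gamma receptor, rose by 0.36 in knockout skin (limma adjusted p = 0.023), and Il12b, a cytokine subunit, by 0.44 (limma adjusted p = 0.0344). Il10, an anti-inflammatory cytokine, rose by 0.24 in knockout skin (limma adjusted p = 0.0473) and by 0.34 in control skin (limma adjusted p = 0.0102). It was the 1 gene of the list that rose in control skin. Socs1, a suppressor of cytokine signalling, rose by 0.30 in knockout skin (limma adjusted p = 0.0162).

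Genes of Langerhans cell development and residence moved in both directions. Of 17 genes, 4 rose and 2 fell in knockout skin, and 4 rose and 1 fell in control skin, with medians of -0.07 and 0.01. Id2, a transcription factor that Langerhans cells need, fell by 0.83 in knockout skin (limma adjusted p = 7.32e-05) and by 0.62 in control skin (limma adjusted p = 0.00225). Il34, the keratinocyte cytokine that maintains Langerhans cells through the receptor Csf1r, fell by 0.57 in knockout skin (limma adjusted p = 0.029) and was at -0.33 in control skin (limma adjusted p = 0.294). Ccl20, a chemokine that draws Langerhans cell precursors, rose by 1.12 in knockout skin (limma adjusted p = 3.24e-06) and by 1.65 in control skin (limma adjusted p = 3.2e-08). Cd24a, a surface protein of Langerhans cells and of many other cells, rose by 1.38 in knockout skin (limma adjusted p = 1.42e-07) and by 1.27 in control skin (limma adjusted p = 6.07e-07).

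Markers of other cells that carry class II went different ways. Of 15 dendritic cell markers 5 fell and 0 rose in knockout skin, and 1 fell in control skin, with medians of -0.30 and -0.12. Mgl2, a lectin of dermal dendritic cells and macrophages, fell by 2.0 in knockout skin (limma adjusted p = 7.11e-06) and by 1.47 in control skin (limma adjusted p = 0.000394). Clec10a, a related lectin, fell by 0.95 in knockout skin (limma adjusted p = 0.02) and was at -0.27 in control skin (limma adjusted p = 0.655). Of 13 macrophage and monocyte markers 4 rose and 1 fell in each genotype, with Itgam, the CD11b chain, up by 1.90 in knockout and 1.88 in control skin (limma adjusted p = 3.49e-05 and 6.25e-05). Cd14, a coreceptor for bacterial lipopolysaccharide, rose by 1.33 in knockout skin (limma adjusted p = 0.0163) and was at 0.25 in control skin (limma adjusted p = 0.781). Mertk, a receptor of tissue macrophages for dying cells, fell by 0.73 in knockout skin (limma adjusted p = 0.00145) and by 0.51 in control skin (limma adjusted p = 0.0324). By limma 0 of 7 B cell markers passed in either genotype, and 0 had an unadjusted p under 0.05. Of all 22180 genes, 6925 had such a p in knockout and 5300 in control skin. The part of any of these cells in the class II values was not tested.

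**Figure D5:**
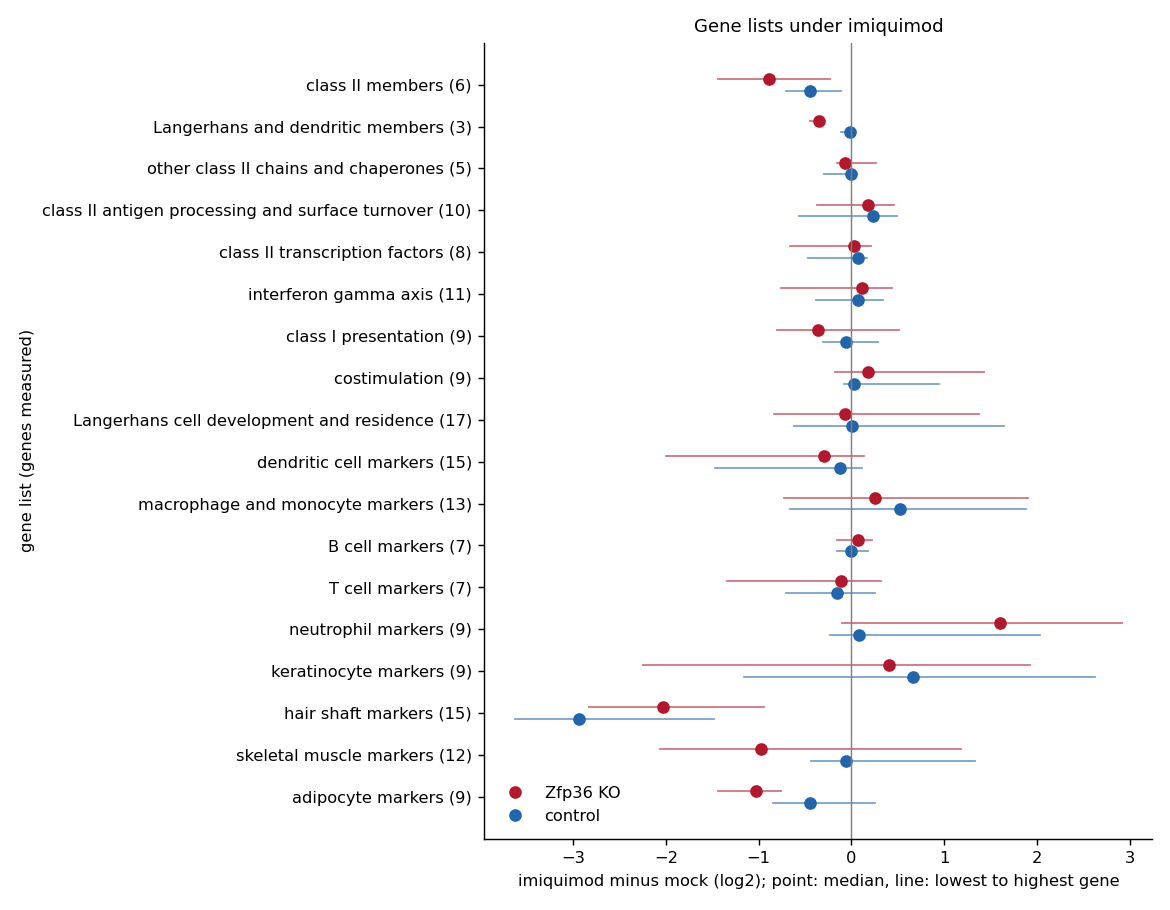
Difference between imiquimod-treated and mock-treated skin (log2, horizontal axis) of the 6 class II genes, the 3 Langerhans and dendritic cell genes and 16 further gene lists. Points are list medians in knockout (red) and control (blue) skin, and lines run from the lowest to the highest gene. The class II medians are -0.89 in knockout and -0.45 in control skin, against 0 over all genes. The hair medians are -2.03 and -2.94, with 0 of 15 genes past the limma threshold in either genotype. An unadjusted limma p under 0.05 was found for 5 of the 15 in knockout and 15 in control skin. Over all 22180 genes, 6925 had such a p in knockout and 5300 in control skin.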

How the data were processed

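Per the labels' protocols, total RNA of abdominal skin was extracted with Trizol and RNeasy columns, and the WT PLUS protocol of Affymetrix was run from 200 ng. A table of 41345 probe sets and 20 arrays was deposited, whose values were read as log2 from their range. How the authors normalized it and the log base they used are not stated by the labels or the file. Detection calls were not used here. Of the probe sets, 23521 had 1 gene symbol in the platform table, 1814 had several and 16010 had no entry. Probe sets with 1 symbol were kept, and the brightest over all arrays stood for a gene where several had the same symbol (1082 genes), which left 22180 genes, with no filter on dim ones. Entrez identifiers changed 0 symbols.

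Differences were tested on all genes with limma 3.58.1 under R 4.3.3 (functions lmFit and eBayes, two-sided, 1 mean per group, 16 residual degrees of freedom), with Benjamini-Hochberg adjustment over all genes and a threshold of 0.05, in 5 contrasts. The 20 arrays come from separate animals, per the series design, and their number limits the precision: the median standard error of a difference was 0.113. Fold changes are antilogs and rest on the inferred base. A mean of hair shaft, muscle or adipocyte genes per array served as covariate. Correlations were taken over deviations from group means. Promoter windows come from RefSeq, GRCm38.p6, and locations from a gene table of the same assembly.

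The members and the gene lists, written from background knowledge, were chosen with earlier results of these data known, so they are no independent evidence of a direction. By the rule for named genes, the text names all members, the 5 genes most like the class II chains and the 5 most like Cd207, and, per list and contrast, up to 2 genes that rose most and up to 2 that fell most among those that passed; lists without such a gene give the 2 of lowest p. Not all of these are printed. The class II mean holds H2-Aa, H2-Ab1 and H2-Eb1, because Cd74 has no probe set of its own. Some list genes that did not pass, and Socs1, which did, are named for their role or their promoter, after their values were seen. Alternatives are given in the closing section.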

Additional observations from a re-analysis of the deposited data

Results flagged for a closer look

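Each of the 9 genes was looked at within each group of 5 arrays for a highest or lowest array that stood far from the rest, in 36 sets in all, of which 2 had one. Chance gives such an array in about 1 in 20 sets. Both sets were of H2-DMb1, one of the dimmest 30% of genes. In mock-treated knockout skin array 3 read 4.92, against 4.16 for the nearest of the others and 3.86 for the farthest, so that the gap took up 0.717 of the range. In imiquimod-treated control skin array 2 read 3.48, against 3.80 for the nearest and 3.87 for the farthest, a share of 0.821. The fall of H2-DMb1 in knockout skin kept its call without each single array, with a highest limma adjusted p of 0.00985.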

How the results depend on the processing

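In knockout skin 6 genes passed in the analysis as reported, and between 4 and 6 when 1 array was left out. With the muscle covariate 2 passed, and with the adipocyte covariate 1, and the cause was not tested. H2-Aa, H2-Ab1, H2-Eb1 and H2-DMb1 kept their calls in each fit that left out 1 array, with highest limma adjusted p-values of 0.000806, 0.00841, 0.00619 and 0.00985. Epcam was also lost by median centring of the arrays (limma adjusted p = 0.0672), by fitting only the groups compared (limma adjusted p = 0.102) and with the hair covariate (limma adjusted p = 0.0712). Cd207 passed when only the groups compared were fitted (limma adjusted p = 0.0429). In control skin 0 genes passed as reported, 1 after quantile normalization, 1 without the 30% dimmest genes, 4 with the hair covariate, 3 with the muscle covariate, and 0 to 2 when 1 array was left out. H2-DMb1 has no value without the dimmest 30% of genes, to which it belongs. No member passed between genotypes or in the difference of responses under any alternative run. Deviations of arrays of 1 replicate number had r from -0.709 to 0.516. Arrays of different numbers were not compared in this way, so these values cannot decide whether the numbers pair the arrays. With the replicate number as a block, 5 members passed in knockout skin, where Epcam was lost (limma adjusted p = 0.0741), and 0 in control skin, and 4230 and 2036 genes over the array. Over the array 4605 genes passed in knockout skin (3523 to 5290 over all alternatives), 2404 in control skin (1619 to 3697, the highest with array weights), 121 between genotypes under imiquimod (17, with only the groups compared, to 334, with the hair covariate), 2 in mock skin (0 to 5) and 4 in the difference of responses (3 to 12). No called member changed sign. Of 1120 member values under alternatives, 49 changed sign without passing on either side, with sizes up to 0.54. The muscle and adipocyte covariates, and leaving out the 4 arrays set apart by hair genes, were chosen after seeing the data.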

Other observations

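Genes of class I presentation and costimulation were counted beside the class II genes. For these and the lists that follow, 9.71% of all genes fell and 11.1% rose in knockout skin, and 4.37% and 6.47% in control skin. Of 9 genes of class I presentation, 3 fell and 1 rose in imiquimod-treated against mock-treated knockout skin, with a median of -0.36. In control skin 0 passed by limma, with a median of -0.06, and 1 had an unadjusted p under 0.05, against 23.9% of all genes. Tap1, a subunit of the peptide transporter, fell by 0.80 in knockout skin (limma adjusted p = 0.00136), and Psmb9, a subunit of the immunoproteasome, by 0.72 (limma adjusted p = 0.00222). Calr, the chaperone calreticulin, rose by 0.51 (limma adjusted p = 0.000675). Of 9 costimulatory genes 2 rose and 0 fell in knockout skin, and 1 rose in control skin. Cd274, the inhibitory ligand PD-L1, rose by 1.43 in knockout skin (limma adjusted p = 3.84e-05) and by 0.94 in control skin (limma adjusted p = 0.00402). Cd80, a ligand of T cell costimulation, rose by 1.04 in knockout skin (limma adjusted p = 0.00695).

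Of 7 T cell markers 2 fell and 1 rose in knockout skin under imiquimod, and 1 rose in control skin. Cd3g and Cd3e, chains of the T cell receptor complex, fell by 1.34 (limma adjusted p = 0.000321) and 0.78 (limma adjusted p = 0.0106), and were at -0.70 (limma adjusted p = 0.0595) and -0.43 (limma adjusted p = 0.212) in control skin. Cd5, a surface receptor of T cells, rose by 0.32 in knockout skin (limma adjusted p = 0.00775) and by 0.26 in control skin (limma adjusted p = 0.0489). Of 9 neutrophil markers 5 rose in knockout and 1 in control skin, with medians of 1.60 and 0.08. Cxcr2, a chemokine receptor of neutrophils, rose by 2.48 in knockout skin (limma adjusted p = 4.12e-08) and by 2.03 in control skin (limma adjusted p = 8.78e-07). Of 9 keratinocyte markers 4 rose and 1 fell in each genotype, with medians of 0.41 in knockout and 0.66 in control skin. Krt1, a keratin of differentiating keratinocytes, rose by 1.93 in knockout skin (limma adjusted p = 0.000149) and by 2.63 in control skin (limma adjusted p = 6.78e-06), and Krt15, a keratin of hair follicle and basal cells, fell by 2.25 (limma adjusted p = 1.36e-05) and 1.16 (limma adjusted p = 0.0131).

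The response to imiquimod averaged over both genotypes was added after seeing the data. In it 5 of 9 genes fell and 0 rose (limma), against 13.7% of all genes that fell. H2-Aa was at -1.08 (limma adjusted p = 5.11e-05), H2-Ab1 at -1.02 (limma adjusted p = 0.000842), H2-Eb1 at -0.87 (limma adjusted p = 0.000506), H2-DMa at -0.45 (limma adjusted p = 0.00953) and H2-DMb1 at -0.43 (limma adjusted p = 0.00288). Ciita at -0.17 (limma adjusted p = 0.195), Cd207 at -0.21 (limma adjusted p = 0.277), Epcam at -0.19 (limma adjusted p = 0.112) and Itgax at -0.20 (limma adjusted p = 0.314) did not pass. This average holds the knockout arrays of the comparison in the report, so it is no independent test of it.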
